A study of Mus musculus with 4 samples.

Results

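Tetraspanins are small proteins that cross the membrane several times and gather integrins, immunoglobulin superfamily proteins and proteases into surface assemblies. The genes were taken as every gene whose symbol in the array annotation begins with Tspan and a digit, together with Cd9, Cd37, Cd53, Cd63, Cd81, Cd82 and Cd151. This gave 26 of the 19938 genes that had a probe set of their own, and each of the 26 was read by 1 probe set.

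The samples were TS2 and TS1, mouse lines that descend, per the labels, from CD4+ lymphocytes of the T lineage. They were grown in Iscove-Dulbecco's medium with murine interleukin-9 and received no treatment. RNA from biological duplicates A and B of each line was hybridised to 4 Affymetrix arrays, 1 per duplicate, and the labels name no genotype, strain or animal. With 2 arrays per line, each line stands for itself alone.

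Values are log2 of the background-corrected, normalized intensity. The number of arrays limits the precision: the smallest two-sided p of an exact permutation test with 2 arrays a line is 0.333. Adjusted p-values therefore come from limma, a linear model that shares variance between genes, and were adjusted over all 19938 genes by the Benjamini-Hochberg method. A gene was called at an adjusted p under 0.05. Differences are TS2 minus TS1 with their standard error (SE). Detection calls were not used here, and intensities of different probe sets are not comparable as amounts of transcript.

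Of 9 T cell marker genes, 3 passed in limma (33.3%, against 13.5% of all genes), each higher in TS2. At an unadjusted p under 0.05 there were 4. Both lines carry the T lineage label, so a difference between them does not check it. Cd3e, part of the T cell receptor, lay at 12.74 and 12.53 on the TS2 arrays, against 6.45 and 6.41 on the TS1 arrays. Ptprc, the leukocyte common antigen CD45, lay at 11.11 and 10.96 in TS2 and at 5.0 on both TS1 arrays. Cd247, the zeta chain, was the third, with a difference of 2.83. Cd3g, another part of the receptor, did not follow Cd3e: it lay at 10.39 and 11.98 in TS2 and at 10.52 and 6.07 in TS1, so the lines overlapped (adjusted p = 0.281). Cd4 lay between 5.15 and 5.38 on all 4 arrays, below the median of all probe sets (6.47 to 6.53 over the arrays), as did Cd2, Cd3d, Cd5 and Thy1. On both TS1 arrays Cd3e, Ptprc and Cd247 were below this median as well. Of 5 mast cell markers, 1 was called, Kit, the stem cell factor receptor, which lay at 5.48 and 5.32 in TS2, against 7.2 and 7.4 in TS1 (difference -1.90, adjusted p = 0.00153). The other mast cell markers were not called and did not share a direction. Mcpt4, a protease, lay at 6.60 and 10.10 in TS2, against 5.45 and 5.33 in TS1 (difference 2.96, adjusted p = 0.158). Cpa3, another protease, lay at 8.91 and 7.95 in TS2, against 9.13 and 9.0 in TS1 (difference -0.64, adjusted p = 0.267). Fcer1a, the alpha chain of the IgE receptor, lay at 13.00 and 13.08 in TS2 and at 12.69 and 12.91 in TS1, and Tpsb2, a tryptase, was below the median of all probe sets on every array (difference -0.070). Pdgfra was called higher in TS1 among 4 fibroblast markers (difference -1.78, adjusted p = 0.0325), a call that ended with TS1 B left out (adjusted p = 0.0572), TS2 A left out (adjusted p = 0.141), TS2 B left out (adjusted p = 0.0781) or adjustment over all probe sets (adjusted p = 0.0733). By limma, 0 of 4 B cell, 0 of 5 myeloid and 0 of 4 epithelial markers were called, each of these lists with 1 or 2 at an unadjusted p under 0.05. The part of other cell types in the results below was not tested. In bulk RNA, fewer cells that express a gene and less RNA per cell cannot be told apart.

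Some tetraspanins, such as CD37 and CD53, belong to blood cells, whereas CD9, CD63, CD81, CD82 and CD151 are found in many tissues. On T cells several of them, CD81 and CD82 among them, act together with the T cell receptor and CD4 or CD8 at the contact with other cells. CD63 resides mainly in late endosomes, secretory granules and the vesicles released from them, and a subgroup named TspanC8 carries the protease ADAM10 to the cell surface.

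Of the 26 genes, 5 were called (19.2%), against 13.5% of all genes. Cd37, Cd82 and Cd53 were higher in TS2, 3 genes against a background of 5.05% called in that direction. Cd63 and Tspan33 were higher in TS1, 2 genes against a background of 8.45%. At an unadjusted p under 0.05 there were 12 of 26 tetraspanin genes and 5862 of all 19938. The TS2 and TS1 arrays were fully separated for 17 of the 26 genes (65.4%), against 58.4% of all genes. A difference of at least 1, a doubling, was reached by 4 of the 26, against 6.04% of all genes, and the fourth besides Cd37, Cd82 and Tspan33 was Tspan32, which was not called. The median difference over the 26 genes was 0.063, against 0.013 over all genes, and the median absolute difference was 0.19, against 0.16.

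**Figure D1:**
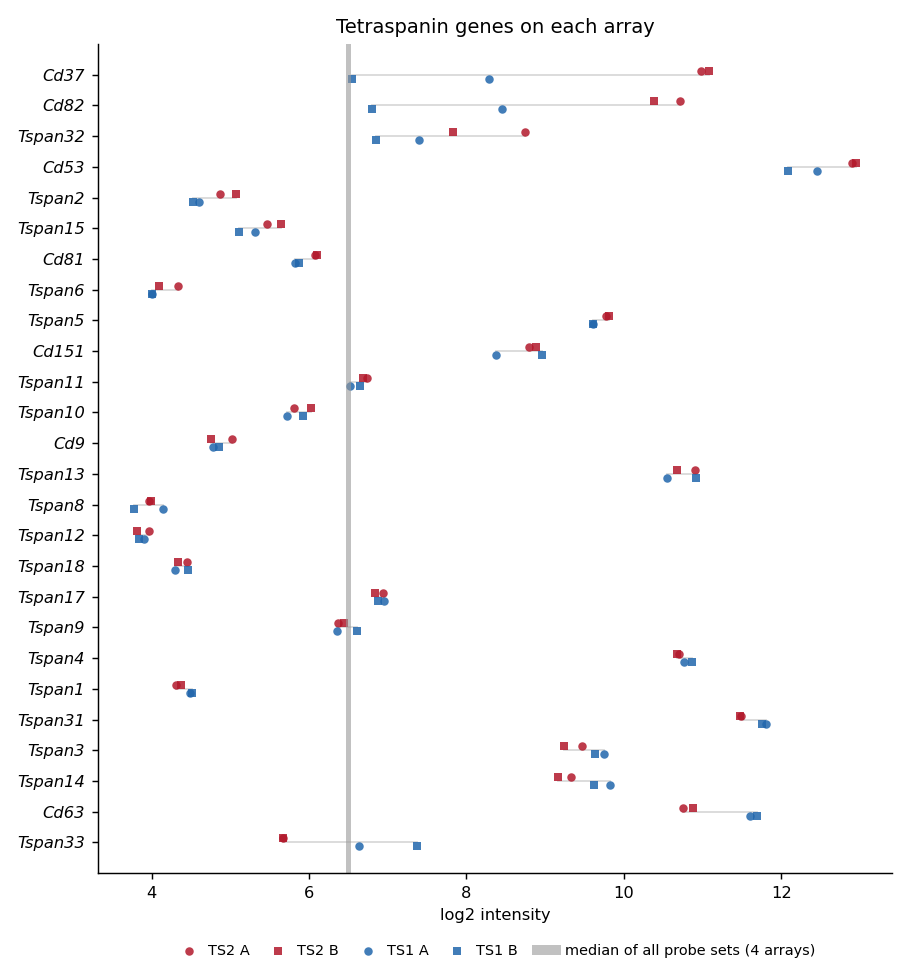
Log2 intensity of the 26 tetraspanin genes on each array, ordered by the difference between the lines. Red marks TS2, blue marks TS1, circles are duplicate A, squares are duplicate B, and the grey band is the median of all probe sets over the 4 arrays. Cd37 and Cd82 show the widest gaps between the lines, with TS1 A above TS1 B in both. Cd9 and Cd81 lie left of the band on all arrays.

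The stretch of 250 bases before a transcription start listed in the RefSeq promoter table is shown for the 5 called genes, since these carry the differences described next. The sequences come from RefSeq (mouse assembly GRCm38.p6), are written 5′ to 3′ on the strand of the gene, and cover chr7:45238840-45239089 (minus strand) for Cd37, chr2:93462951-93463200 (minus) for Cd82, chr3:106790150-106790399 (minus) for Cd53, chr6:29693964-29694213 (plus) for Tspan33 and chr10:128909095-128909344 (plus) for Cd63. Cd82 has 4 starts in the table and the most upstream is shown. For Cd37 and Cd63 the table lists 1 start each, and it lies inside the gene's full span (chr7:45233632-45239340 and chr10:128896231-128912822), so their stretches fall within the annotated gene. Which start these lines use was not tested. Capitals mark the letters AGGAAG, a core bound by ETS factors, and GGGCGG, a GC box, on either strand.
Cd37: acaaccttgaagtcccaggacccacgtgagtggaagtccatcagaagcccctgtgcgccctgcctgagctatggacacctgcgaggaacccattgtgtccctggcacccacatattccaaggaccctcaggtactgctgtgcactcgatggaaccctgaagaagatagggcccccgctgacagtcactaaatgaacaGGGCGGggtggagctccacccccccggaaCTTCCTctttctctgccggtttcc
Cd82: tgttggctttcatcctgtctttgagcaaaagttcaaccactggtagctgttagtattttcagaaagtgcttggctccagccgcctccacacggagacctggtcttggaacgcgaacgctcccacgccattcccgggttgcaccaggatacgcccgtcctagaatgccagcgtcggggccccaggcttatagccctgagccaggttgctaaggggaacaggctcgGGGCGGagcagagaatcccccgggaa
Cd53: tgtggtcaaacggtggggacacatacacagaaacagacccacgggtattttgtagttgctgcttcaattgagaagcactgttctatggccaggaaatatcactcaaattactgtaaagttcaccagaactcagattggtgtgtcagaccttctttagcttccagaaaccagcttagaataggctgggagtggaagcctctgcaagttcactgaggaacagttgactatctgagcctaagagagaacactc
Tspan33: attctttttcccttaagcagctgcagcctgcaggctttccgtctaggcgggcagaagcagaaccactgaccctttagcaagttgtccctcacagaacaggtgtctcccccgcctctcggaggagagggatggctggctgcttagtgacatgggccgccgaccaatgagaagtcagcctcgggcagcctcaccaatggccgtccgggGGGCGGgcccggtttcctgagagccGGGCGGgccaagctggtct
Cd63: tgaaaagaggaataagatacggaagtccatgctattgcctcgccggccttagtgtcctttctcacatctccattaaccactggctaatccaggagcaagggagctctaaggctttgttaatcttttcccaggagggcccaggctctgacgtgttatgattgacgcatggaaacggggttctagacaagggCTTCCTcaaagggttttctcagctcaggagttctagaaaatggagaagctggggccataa
The ETS core stood 1 time in the Cd37 stretch and 1 time in the Cd63 stretch, each time as its reverse complement, and in 0 of the other 3. A GC box stood 1 time in Cd37, 1 time in Cd82 and 2 times in Tspan33, while the Cd53 stretch held neither set of letters. Among all 32851 windows of this length, 29.5% held the ETS core and 32.7% a GC box. Counted by gene, with a gene included if any of its windows held the letters, 10 of the 25 tetraspanin genes with a window had the ETS core. A GC box was held by 13 of the 25. The shares over windows are not a background for these counts by gene, since a gene with several starts has several windows. No share by gene over all genes is given, so the counts are not read as a trait of tetraspanins. These matches describe the letters and were not tested as binding sites.

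Cd37, a tetraspanin of leukocytes studied most in B cells, had the widest gap between the lines. It lay at 10.98 and 11.08 on the TS2 arrays, against 8.28 and 6.55 on the TS1 arrays. Both TS1 arrays were below both TS2 arrays, and TS1 A stood well above TS1 B. The means were 11.03 ± 0.073 in TS2 and 7.41 ± 1.23 in TS1 (SD, n = 2 each), a difference of 3.62 (SE 0.55, 95% interval 2.19 to 5.04, adjusted p = 0.0187 by limma) or 12.3-fold. Without TS1 A the difference was 4.48 and without TS1 B it was 2.75, and the call held in both. It ended with TS2 A left out (adjusted p = 0.0818) or with TS2 B left out (adjusted p = 0.0839), where the single TS2 array left is assumed to vary like the TS1 pair.

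Cd82, also known as KAI1 and described as a suppressor of metastasis, had a similar arrangement of arrays. Its values were 10.72 and 10.38 in TS2, against 8.45 and 6.80 in TS1. The TS2 duplicates lay close together, and the TS1 duplicates differed by 1.65. The difference was 2.92 (SE 0.54, 95% interval 1.54 to 4.30, adjusted p = 0.0298 by limma), a 7.58-fold higher intensity in TS2. This call was lost with TS2 A left out (adjusted p = 0.132), with TS2 B left out (adjusted p = 0.102), with outlier-robust moderation (adjusted p = 0.0668) and with adjustment over all probe sets (adjusted p = 0.0685). Without TS1 A the difference was 3.75 and without TS1 B it was 2.10.

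Cd53, a tetraspanin found across leukocytes, was bright in both lines. It lay at 12.90 and 12.95 in TS2, against 12.45 and 12.09 in TS1. The groups did not overlap, and the TS1 duplicates again differed more than the TS2 duplicates. The difference of 0.66 (SE 0.14, adjusted p = 0.0463 by limma), or 1.58-fold, stood just inside the threshold. It lost its call with TS1 B left out (adjusted p = 0.0830), with TS2 A left out (adjusted p = 0.170), with TS2 B left out (adjusted p = 0.188), after centring each array (adjusted p = 0.0546), after renewed quantile normalization (adjusted p = 0.0531) and with adjustment over all probe sets (adjusted p = 0.0941).

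Tspan32, also called Tssc6 or Phemx, is a haematopoietic tetraspanin whose loss in mice makes T cells proliferate more. Its values were 8.74 and 7.83 in TS2, against 7.40 and 6.85 in TS1. Both TS2 arrays were above both TS1 arrays, but the duplicates of each line lay far apart, with an SD of 0.64 in TS2 and 0.39 in TS1. The difference of 1.16 (SE 0.35, 95% interval 0.27 to 2.05) did not pass (adjusted p = 0.0985 by limma), and it ranged from 0.70 to 1.61 over the settings tried. The leukocyte tetraspanins were listed as Cd37, Cd53, Tspan32 and Tspan33. Of these 4, 2 were called higher in TS2 and 1, Tspan33, higher in TS1 (75% called, against 13.5% of all genes).

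Cd63, the granule and vesicle tetraspanin, was higher in TS1. It lay at 10.75 and 10.87 in TS2, against 11.60 and 11.69 in TS1. The duplicates of each line were close, with an SD of 0.088 in TS2 and 0.066 in TS1. The difference was -0.84 (SE 0.098, 95% interval -1.09 to -0.59, adjusted p = 0.00908 by limma), so that the intensity was 1.79-fold higher in TS1. Of the 5 calls it had the smallest adjusted p, and it was the single one that also passed an adjusted p of 0.01. It lost its call with TS2 A left out (adjusted p = 0.0609), with a difference of -0.78.

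**Figure D2:**
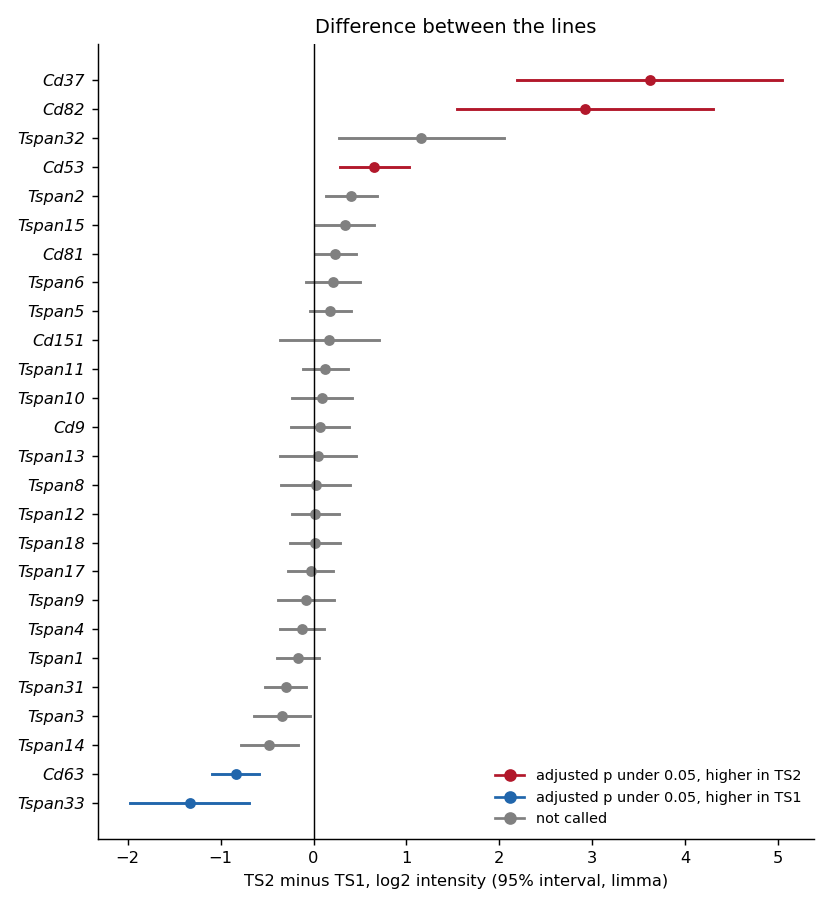
Difference between the line means, TS2 minus TS1, with its 95% interval from limma, for the 26 tetraspanin genes. Red and blue mark genes called higher in TS2 or in TS1, and grey marks genes not called. The widest intervals belong to Cd37, Cd82, Tspan32 and Tspan33, and Cd63 has the narrowest interval of the 5 called genes.

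TspanC8 tetraspanins bind ADAM10, a protease that sheds surface proteins and cleaves NOTCH receptors, and different members direct it to different substrates. Of the 6 measured, Tspan33 was called, higher in TS1 (16.7%, against 13.5% of all genes), and 5 were not called. The median difference of the 6 genes was 0.031, against 0.013 over all genes. Tspan33, known from erythroid and B cells, lay at 5.67 and 5.67 in TS2, against 6.63 and 7.38 in TS1. Both TS2 arrays were below the median of all probe sets and both TS1 arrays were above it. The difference was -1.33 (SE 0.25, 95% interval -1.97 to -0.69, adjusted p = 0.0312 by limma), a 2.51-fold higher intensity in TS1. It lost its call with TS2 A left out (adjusted p = 0.131), with TS2 B left out (adjusted p = 0.125) and with adjustment over all probe sets (adjusted p = 0.0710).

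The other TspanC8 genes differed by less. Tspan14 lay at 9.33 and 9.16 in TS2, against 9.82 and 9.62 in TS1, without overlap. Its difference of -0.48 (SE 0.12) had an adjusted p of 0.0654 by limma and passed with the dimmest 50% of probe sets left out (adjusted p = 0.0473). Tspan5 lay at 9.78 and 9.80 in TS2 and at 9.61 and 9.61 in TS1 (difference 0.18, adjusted p = 0.244). Tspan15 was dim, at 5.46 and 5.64 in TS2 and 5.32 and 5.11 in TS1 (difference 0.34, adjusted p = 0.146). Tspan17 (difference -0.028) and Tspan10 (difference 0.090) overlapped between the lines. The 95% intervals of these 5 genes lay within a doubling in either direction.

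Adam10 itself lay at 10.08 and 9.86 in TS2 and at 10.09 and 10.18 in TS1, a difference of -0.16 (adjusted p = 0.419 by limma). Adam17, a related protease, differed by -0.13 (adjusted p = 0.405). Among the 6 genes of both proteases and the NOTCH family, TS2 was higher in 2 and TS1 in 0 (33.3% called, against 13.5% of all genes, or 5.05% higher in TS2). Notch1, a receptor needed for T cell development, lay at 8.93 and 8.98 in TS2, against 7.15 and 7.62 in TS1 (difference 1.57, SE 0.17, adjusted p = 0.00748). Notch2 showed a smaller difference of 0.46 (SE 0.10, adjusted p = 0.0471). The call of Notch1 held without any one array, and that of Notch2 ended with any one array left out (adjusted p from 0.0668 without TS1 A to 0.222 without TS2 B), after centring each array (adjusted p = 0.0509) and with adjustment over all probe sets (adjusted p = 0.0949).

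Among the tetraspanins of many tissues, Cd81, Cd9 and Cd151 were not called. Cd81, a co-stimulator of T cells, lay at 6.07 and 6.10 in TS2, against 5.82 and 5.87 in TS1. These arrays did not overlap, but the difference of 0.23 (95% interval 0.012 to 0.46) did not pass (adjusted p = 0.153 by limma). Cd9, which is needed for fusion of egg and sperm, lay at 5.02 and 4.76 in TS2 and at 4.78 and 4.85 in TS1. Cd81 and Cd9 were below the median of all probe sets on every array. Cd151, a partner of laminin-binding integrins, lay at 8.79 and 8.88 in TS2 and at 8.37 and 8.96 in TS1, so that TS1 spanned both TS2 values.

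Bright in both lines and not called were Tspan31, Tspan4, Tspan13 and Tspan3. Tspan31, amplified in sarcomas together with its neighbour Cdk4, lay at 11.49 and 11.48 in TS2, against 11.80 and 11.76 in TS1. Its difference of -0.30 (SE 0.086) had an adjusted p of 0.0899 by limma and passed with an intensity trend in the prior variance (adjusted p = 0.0312). Tspan4, which is known to be enriched on migrasomes, vesicles left behind by moving cells, differed by -0.13 (adjusted p = 0.436) at 10.67 to 10.87 over the arrays. Tspan13 overlapped between the lines at 10.55 to 10.91. Tspan3, of broad expression, lay at 9.47 and 9.23 in TS2, against 9.74 and 9.64 in TS1 (difference -0.34, adjusted p = 0.138).

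Dim on all 4 arrays, in the sense of lying below each array's median of all probe sets, were 10 of the 26 genes. By limma 0 of these 10 were called, against 13.5% of all genes, bright and dim together. The share called among dim genes was not counted, so the 0 is not read as a trait of these tetraspanins. Besides Cd9, Cd81, Tspan10 and Tspan15 the dim members were Tspan1, Tspan2, Tspan6, Tspan8, Tspan12 and Tspan18, several of which are known from epithelia, vessels, eye or brain. Tspan2, known from oligodendrocytes, came closest to a call, at 4.87 and 5.07 in TS2 and 4.60 and 4.53 in TS1 (difference 0.41, adjusted p = 0.0734). Tspan6 differed by 0.21 and Tspan1 by -0.16, without overlap of the arrays. Tspan8, Tspan12 and Tspan18 lay at 3.78 to 4.46 and overlapped between the lines. Tspan9, a platelet tetraspanin, and Tspan11, a close relative of Cd151, lay near the median, with differences of -0.082 and 0.13. Of all 21 genes not called, 20 had a 95% interval within a doubling in either direction, the exception being Tspan32.

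The TS1 duplicates stood apart for Cd37 and Cd82. Over the 26 genes the median absolute difference between duplicates was 0.11 in TS2 and 0.15 in TS1, close to the 0.11 and 0.13 over all genes. For Cd37 and Cd82, TS1 A exceeded TS1 B by 1.73 and 1.65, and a gap of over 1.5 in either direction was found in 72 of all 19938 genes (0.361%). The TS2 duplicates differed by -0.10 and 0.34 for the same genes (A minus B). Cd3g lay at 10.52 on TS1 A and at 6.07 on TS1 B, so the array with more Cd37 and Cd82 also had more Cd3g. This gap of 4.45 was the widest between the TS1 duplicates of all genes, and Cd3g was 1 of 9 T cell markers. The others (Cd3e, Ptprc, Cd247, Cd2, Cd3d, Cd4, Cd5 and Thy1) were below the median of all probe sets on both TS1 arrays. Of these, Cd247, Cd2 and Cd5 were slightly lower on TS1 A than on TS1 B, and the rest slightly higher. For Cd3e, Ptprc and Cd247, the markers called higher in TS2, TS1 A minus TS1 B was 0.039, 0.0072 and -0.15. These were far smaller than the gaps of Cd37 and Cd82. The part of the TS1 cultures in these gaps was not tested.

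**Figure D3:**
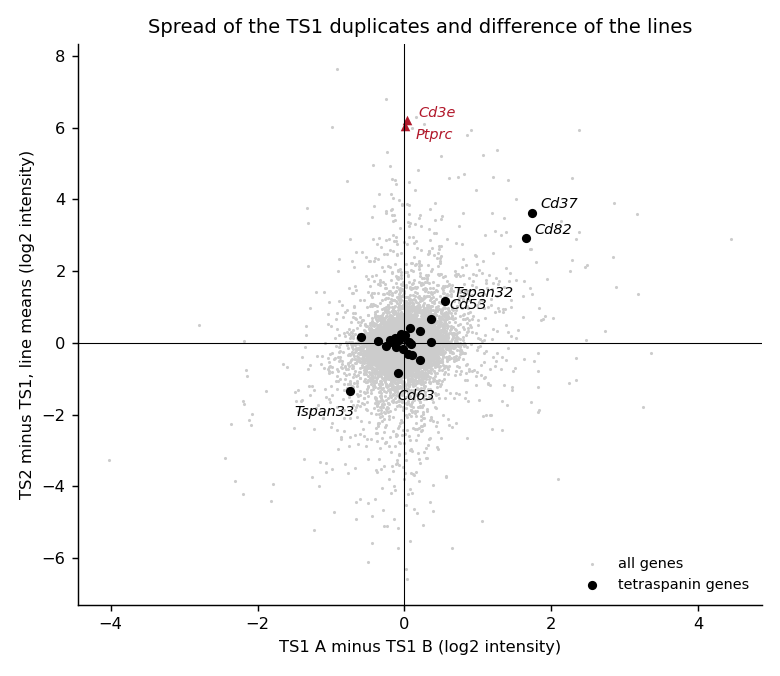
Difference between the TS1 duplicates (A minus B, horizontal) and between the line means (TS2 minus TS1, vertical), both in log2 intensity, for all genes (grey) and the tetraspanin genes (black), with the T cell markers Cd3e and Ptprc (red triangles). Cd37 and Cd82 lie 1.73 and 1.65 to the right of 0, while Cd3e and Ptprc, dim on both TS1 arrays, lie near 0 on the horizontal axis. The TS1 values enter both axes.

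Relatives and partners of the tetraspanins were counted from lists of genes. The lists were chosen with earlier results of these data known, so their shares called are no test against the share of all genes. Of 4 measured family members outside the naming rule, 1 was higher in TS2 and 1 in TS1, against 13.5% of all genes called. Upk1b, a uroplakin of the bladder lining, lay at 5.19 and 7.29 in TS2, against 9.34 and 9.42 in TS1. The TS2 duplicates were 2.10 apart, and the difference of -3.14 (SE 0.67, adjusted p = 0.0433 by limma) lost its call with TS1 A left out (adjusted p = 0.117), with TS1 B left out (adjusted p = 0.138), with outlier-robust moderation (adjusted p = 0.110) and with adjustment over all probe sets (adjusted p = 0.0901). Upk1a, its relative, lay at 7.81 and 7.53 in TS2, against 6.90 and 6.71 in TS1 (difference 0.87, adjusted p = 0.0203), a call lost with TS1 B left out (adjusted p = 0.0728), with TS2 A left out (adjusted p = 0.0916) and with adjustment over all probe sets (adjusted p = 0.0516). Prph2 and Rom1, of the photoreceptor discs, overlapped between the lines. Of 5 measured genes of the L6 family, which was once grouped with the tetraspanins, 0 passed in limma and 1 had an unadjusted p under 0.05.

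Of 8 measured partners of CD9 and CD81, 3 were higher in TS1 and 0 in TS2 (37.5% called, against 13.5% of all genes, or 8.45% higher in TS1). Igsf8, which encodes EWI-2, a direct partner of both tetraspanins, lay at 6.83 and 7.06 in TS2, against 7.80 and 7.85 in TS1 (difference -0.88, SE 0.11, adjusted p = 0.0119 by limma). The Igsf8 call was lost with TS2 A left out (adjusted p = 0.0586). Igsf3, of the same subfamily, lay at 5.97 and 5.84 in TS2, against 7.75 and 7.63 in TS1 (difference -1.79, adjusted p = 0.00124). Cr2, complement receptor 2, which joins CD81 on B cells, lay at 4.83 and 4.79 in TS2, against 7.24 and 7.02 in TS1 (difference -2.33, adjusted p = 0.000748). Igsf3 and Cr2 kept their calls without any one array. Ptgfrn, another EWI protein, was dim and not called (difference 0.13).

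Of 7 integrin chains known to associate with tetraspanins, 1 was higher in TS1 and 0 in TS2 (14.3% called, against 13.5% of all genes). Itga4, a chain of the integrin VLA-4, lay at 5.16 and 5.51 in TS2, against 7.08 and 6.38 in TS1 (difference -1.40, SE 0.26, adjusted p = 0.0312 by limma). It lost its call with TS2 A left out (adjusted p = 0.140), with TS2 B left out (adjusted p = 0.0814) and with adjustment over all probe sets (adjusted p = 0.0710). Itgb1, the beta chain shared by these integrins, lay at 9.88 and 9.98 in TS2 and at 10.03 and 10.17 in TS1 and was not called (adjusted p = 0.340). Itga6, a laminin-binding chain, lay at 6.55 and 8.19 in TS2, so that its TS2 arrays enclosed both TS1 arrays (7.99 and 7.60).

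Tetraspanins are palmitoylated, a lipid modification added by enzymes of the DHHC family that helps them assemble. Of 23 measured DHHC genes, 2 were higher in TS2, 2 in TS1 and 19 were not called (17.4% called, against 13.5% of all genes). Zdhhc2, an enzyme shown to palmitoylate CD9 and CD151, lay at 11.42 and 11.38 in TS2, against 10.35 and 9.78 in TS1 (difference 1.34, SE 0.20, adjusted p = 0.0175 by limma). Zdhhc15 lay at 5.39 and 5.51 in TS2, against 9.55 and 9.74 in TS1, and its difference of -4.19 (SE 0.11, adjusted p = 0.000214) was the widest in these lists. Zdhhc14 differed by -1.64 (adjusted p = 0.00166) and Zdhhc21 by 0.48 (adjusted p = 0.0373). Zdhhc2 lost its call with TS2 A left out (adjusted p = 0.0870) and with TS2 B left out (adjusted p = 0.0800), and Zdhhc21 whichever array was left out (adjusted p from 0.0724 to 0.198) and with adjustment over all probe sets (adjusted p = 0.0801).

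Machinery of multivesicular bodies and exosomes, the vesicles on which CD9, CD63 and CD81 are used as markers, was measured by 18 genes, of which 3 were higher in TS2 and 0 in TS1 (16.7% called, against 13.5% of all genes). Flot2 and Flot1 encode flotillins, membrane scaffold proteins. Flot2 differed by 0.92 (SE 0.18, adjusted p = 0.0341 by limma), Flot1 by 0.57 (adjusted p = 0.0391) and Vps4a, an ATPase that disassembles the sorting complexes, by 0.50 (adjusted p = 0.0261). The median difference of the 18 genes was 0.062. Flot1 and Vps4a lost their calls whichever array was left out (adjusted p from 0.0544 to 0.186 for Flot1 and from 0.0525 to 0.144 for Vps4a), and Flot2 with TS1 B left out (adjusted p = 0.106), TS2 A (adjusted p = 0.0557) or TS2 B (adjusted p = 0.128), and adjustment over all probe sets ended all 3 calls. Pdcd6ip, Tsg101 and Sdcbp, which act in vesicle budding, were bright and not called, with differences of 0.14, -0.068 and 0.062.

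**Figure D4:**
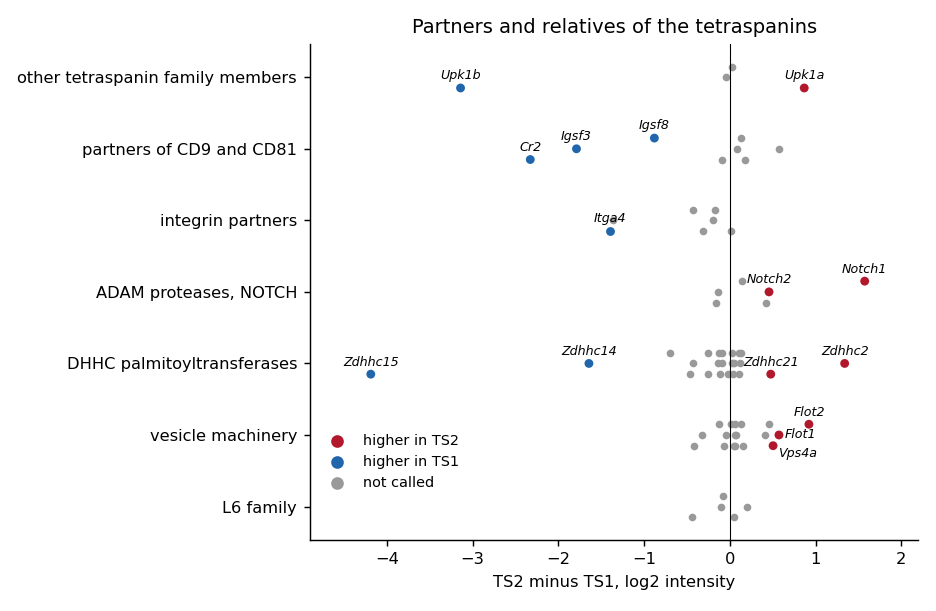
Difference between the line means (TS2 minus TS1, log2 intensity) for 71 genes in 7 lists of tetraspanin relatives and partners, 1 point per gene. Red and blue mark genes called higher in TS2 or in TS1, grey marks genes not called, and vertical offsets within a row only separate the points. The points furthest from 0 are Zdhhc15 (-4.19) and Upk1b (-3.14).

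Some tetraspanin genes lie side by side on mouse chromosomes (GRCm38.p6). Cd151 and Tspan4, on chromosome 7, are separated by 3.76 kb, which contains Polr2l, a shared subunit of RNA polymerases. Polr2l was higher in TS1 by limma (difference -0.54, adjusted p = 0.0252), whereas neither tetraspanin was called. Leaving out any one array ended the Polr2l call (adjusted p from 0.0624 to 0.143), as did adjustment over all probe sets (adjusted p = 0.0600). Tspan32 and Cd81 lie 33.3 kb apart in an imprinted region of chromosome 7, and the measured gene on the other side of Cd81, Tssc4, lay at 7.59 and 7.45 in TS2, against 6.53 and 6.50 in TS1 (difference 1.0, adjusted p = 0.00522). Tspan11 and Tspan9 are 8.37 kb apart on chromosome 6, and both were not called. Tspan18 is the nearest measured gene to Cd82 on one side, and it was dim in both lines.

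The nearest measured genes on both sides, tetraspanins left out, were 46 in number, and 8 of them were called (17.4%, against 13.5% of all genes). Among the 5 called tetraspanins, 1 had a called neighbour. Smo, the signal transducer of the Hedgehog pathway, is the next measured gene to Tspan33, and it lay at 6.52 and 6.51 in TS2, against 10.22 and 10.10 in TS1 (difference -3.65, SE 0.093, adjusted p = 0.000214 by limma). Tspan33 and Smo were thus both higher in TS1. On the far side of Tspan33, Tnpo3, a nuclear import receptor, differed by -0.31 (adjusted p = 0.0827). Pstpip1, an adaptor of the leukocyte cytoskeleton next to Tspan3, was higher in TS2 (difference 2.22, adjusted p = 0.00344), whereas Tspan3 itself was not called. Prxl2a, next to Tspan14, was higher in TS1 (difference -2.12, adjusted p = 0.00843). The other called neighbours were Vangl1, next to Tspan2 (difference -1.24), Pik3r3, next to Tspan1 (difference -1.22), and Agap2, next to Tspan31 (difference 0.57). The Pik3r3 call ended with TS1 B left out (adjusted p = 0.0596). The Agap2 call ended with any one array left out (adjusted p from 0.0577 to 0.175) and with adjustment over all probe sets (adjusted p = 0.0753).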

How the data were processed

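The deposited table holds 1 intensity per probe set and array on a linear scale, from 5.98 to 23157, with 0 missing or non-positive values. The authors made these intensities with RMA in Affymetrix Expression Console, per the submitters' processing notes, a procedure that removes shifts shared by most genes of an array. Versions, filters and the build behind the probe design are not given in the sources used. The median intensity per array ran from 88.6 to 92.5, and Pearson's r across probe sets was 0.994 between the TS2 duplicates and 0.992 between the TS1 duplicates.

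From these, log2 was taken with no pseudocount. Of 35556 probe sets, 21789 had 1 gene symbol in the platform annotation, updated by Entrez number through RefSeq (GRCm38.p6, 21698 found), 1621 had several and 12146 none. The brightest single-gene probe set stood for a gene. All 4 arrays entered one limma 3.58.1 fit (lmFit, eBayes, R 4.3.3), with 2 residual and 3.03 prior degrees of freedom. In 20 simulations with 200 changed genes, the fit recovered 64.5% of differences of 1 and 95.3% of differences of 2. In the data 2691 genes were called, and the adjusted p depends on the share of changed genes. The recovered shares therefore hold for the simulated setting and do not measure the power in these data. The duplicates are called biological by the labels. The p-values weigh the difference between the lines against the spread of the duplicates, which limma moderates with that of other genes.

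All tetraspanin genes were named, and other lists by counts plus called members. The genes and lists were chosen with earlier results of these data known. Alternatives covered replicate blocks, left-out arrays, prior variances, renewed normalization, dim probe sets, probe set choice and thresholds. Promoter windows and gene positions came from RefSeq tables read with Python 3.11.15 and pandas 2.3.3, and figures were drawn with matplotlib 3.10.9.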

Additional observations from a re-analysis of the deposited data

How the results depend on the processing

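With 5 tetraspanin genes called, leaving out 1 array gave 0 to 5 calls (0 without TS2 A, where 9 had an unadjusted p under 0.05, 1 without TS2 B, 4 without TS1 B), against 979 to 2198 of 2691 for all genes. No moderation of the variances gave 0 tetraspanin calls (4 at an unadjusted p under 0.05) and 0 of all genes (4156 unadjusted). Fitting and adjusting over all probe sets gave 2 and 1362, an adjusted p under 0.01 gave 1 and 807, and limma's treat with a minimum of 2-fold gave 0 and 320 (2 and 712 at an unadjusted p under 0.05). The replicate letter as a block gave 5 tetraspanin calls and 1666 over all genes. In the replicate block fit Cd53 was lost (adjusted p = 0.0818) and Tspan32 gained (adjusted p = 0.0248), and the labels name no pairing of the letters. The settings named above as ending a call leave out this block fit. Partner and neighbour calls that ended in it included Flot1 (adjusted p = 0.0520), Flot2 (adjusted p = 0.0840) and Agap2 (adjusted p = 0.0508). The deviations of the A arrays from their line means had r = -0.029 between the lines across genes, which does not show whether the letters mark a shared day or batch. The other settings gave 4 to 6 tetraspanin calls, with Tspan33 among the genes removed where the dimmest 50% were left out. Of the 5 called genes, 0 changed direction in any setting. Alternatives for partner, marker and neighbour genes were chosen after seeing the data. Detection calls were not used, so differences of dim genes have no measured signal over background.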

Other observations

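Of the 1006 genes called higher in TS2, 7 (0.696%) had TS1 A above TS1 B by more than 1.5, and 0 had TS1 B above TS1 A by that much. Over all 19938 genes, 72 (0.361%) had such a gap in either direction. How those 72 split by direction was not counted, so the 7 and 0 have no background by direction. Besides Cd37 and Cd82 the 7 genes called higher in TS2 were Scin, Sla, Sh2d1b1, Galnt6 and Gpr141, named after their values were seen. Sh2d1b1, which encodes the adaptor EAT-2 of SLAM family receptors, lay at 10.17 and 9.96 in TS2, against 6.81 and 5.29 in TS1 (difference 4.02, adjusted p = 0.0103 by limma). Galnt6, an enzyme that starts O-linked glycosylation, lay at 9.10 and 9.08 in TS2, against 7.34 and 5.62 in TS1 (difference 2.61, adjusted p = 0.0419). Gpr141, an orphan receptor, lay at 9.33 and 9.22 in TS2, against 7.53 and 5.81 in TS1 (difference 2.60, adjusted p = 0.0419). In each of these 7 genes the TS2 duplicates lay within 0.34 of each other. With the TS1 duplicates far apart, a limma call favours genes with close TS2 duplicates. This closeness follows in part from the choice of genes and is no separate result.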
